A study of Mus musculus with 3 samples.

Results

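A set of 10 genes of prostaglandin and leukotriene synthesis and signalling were followed in mouse macrophages, by their symbols in GENCODE M21. They are Pla2g4a, Ptgs1, Ptgs2, Ptges, Ptges3, Alox5ap, Alox5, Lta4h, Ptger2 and Ptger4, and all 10 were found among the 55536 genes listed. Total RNA depleted of ribosomal RNA had been sequenced from the cytosolic fraction of C57BL/6J bone marrow-derived macrophages, which are grown in culture from marrow cells. All 3 libraries, called libraries 1, 2 and 3 after their replicate numbers, came from cells given 100 ng/ml lipid A for 50 min. Lipid A is the part of bacterial lipopolysaccharide that Toll-like receptor 4 recognises. The labels give the 3 samples 1 donor label, no age and no sex, and do not say whether separate animals or cultures were used. The p-values measure whether a gene varied between these libraries alone more than genes of like level did in the same data. Such variation may be technical. No unstimulated sample was analysed here, so no level can be read as a response to lipid A.

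Prostaglandins and leukotrienes are short-lived lipid signals made from arachidonic acid. A phospholipase frees the acid from membranes, cyclooxygenases turn it into prostaglandin H2, and terminal synthases make the single prostaglandins from that. In the other branch 5-lipoxygenase, helped by a membrane protein that presents the acid to it, makes leukotriene A4, from which further enzymes make leukotriene B4 and the cysteinyl leukotrienes. Macrophages are a known source of prostaglandin E2, which feeds back on them through the receptors EP2 and EP4, and COX-2 is known as the cyclooxygenase that inflammatory stimuli induce.

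The depth was 33044910, 36769402 and 36522216 expected counts in libraries 1, 2 and 3. Where no read was counted, counting error alone allows up to 3 counts, or 0.0908, 0.0816 and 0.0821 CPM, the counts per library size, in the order of the libraries. Levels are TPM, which are corrected for length and relative to all RNA listed in a library. All 10 macrophage markers checked, such as Adgre1 and Csf1r, reached at least 1 TPM in all libraries, with summed levels of 10280, 6832 and 9656 TPM. By the same limit there were, of the markers of other cell types, 4 of 11 for neutrophils and 1 of 6 for eosinophils. For mast cells and basophils there were 0 of 10 and for platelets 0 of 6. The neutrophil markers detected were S100a9 at 21.8, 20.5 and 17.1 TPM, S100a8 at 12.3, 11.7 and 11.7 TPM, Mmp8 and Ngp. The eosinophil marker detected was Ccr3 at 2.81, 2.62 and 2.08 TPM, while Ly6g and Epx had no count.

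The cyclooxygenase paralogs differ in how they are known to be regulated and were found at unequal levels here, so the 250 bases before the start of each gene are shown for comparison. They are RefSeq sequences of GRCm38.p6, plus strand, from chr2:36230176-36230425 for Ptgs1 and chr1:150099781-150100030 for Ptgs2, followed by the first 30 bases of the Ptgs2 transcript at chr1:150100031-150100060. Capitals mark matches to the motifs searched.
Ptgs1 before the start: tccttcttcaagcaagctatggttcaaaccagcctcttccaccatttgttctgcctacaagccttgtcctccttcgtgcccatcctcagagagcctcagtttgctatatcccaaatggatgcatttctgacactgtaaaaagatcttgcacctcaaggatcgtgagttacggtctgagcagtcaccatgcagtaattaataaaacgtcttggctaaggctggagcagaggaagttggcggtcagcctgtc
Ptgs2 before the start: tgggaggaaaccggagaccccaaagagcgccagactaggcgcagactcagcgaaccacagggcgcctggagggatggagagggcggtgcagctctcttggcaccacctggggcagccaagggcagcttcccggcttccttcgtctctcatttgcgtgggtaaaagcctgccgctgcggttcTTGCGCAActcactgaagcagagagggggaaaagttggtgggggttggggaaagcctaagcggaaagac
Ptgs2 first bases of the transcript: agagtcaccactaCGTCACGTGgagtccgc

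In all 7 motifs were searched on both strands from 250 bases before to 50 bases after the start. They were the C/EBP palindrome TTGCGCAA, the cAMP response element TGACGTCA, its core TGACG, the E-box CACGTG, the AP-1 motif TGANTCA, the kappa-B motif and the TATA box TATAAA. Ptgs2 held TTGCGCAA, whose first base lies 69 bases before the start, and 0.183% of the 32851 RefSeq windows hold that motif. Just after its annotated start, TGACG on the minus strand covered bases 14 to 18 and CACGTG covered bases 17 to 22, so that these matches overlap by the bases they share. All positions are counted from the annotated start, and would shift with another start. TGACG was found in 20.8% of all windows and CACGTG in 7.15%. The Ptgs1 window held none of the motifs. Of the 10 genes 9 had an entry, and the other match was TGACG in Ptges3. A match is a run of letters, not a shown binding site.

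The 3′ UTR of Ptgs2 held the most ATTTA of the 10 and is shown because messages of early response genes are known to carry AU-rich elements built on ATTTA. The 30 bases below are bases 12 to 41 of the 3′ UTR of transcript Ptgs2-201 (GENCODE M21, mm10, chromosome 1, plus strand), the first window of that length with 4 copies, and capitals mark ATTTA.
Ptgs2 3′ UTR: ccatATTTATTTATTTAtgtgaagaATTTA
The whole 3′ UTR of 2445 bases held 14 copies, more than 97.9% of 9078 3′ UTRs of coding genes detected at 1 TPM, whose median was 1. Per kilobase Ptgs2 held 5.73 copies against a median of 1.27, and Pla2g4a with its short 3′ UTR of 443 bases held 9.03. There were 6 copies in Ptger2, 5 in Ptger4, 4 in Pla2g4a and in Ptges3, and 2 in Alox5 and in Alox5ap, while Ptgs1, Ptges and Lta4h had 0. The nonamer TTATTTATT was present in Ptgs2 and Ptger2, and in 6.84% of the 9078 UTRs.

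Of the 10 genes 7 were detected, meaning 1 TPM or more in every library, against 17.2% of all genes and 41.4% of protein-coding genes. Ordered by mean TPM they ran from Alox5ap through Ptgs2, Ptges3, Lta4h, Ptger4, Ptgs1 and Pla2g4a to Ptger2, Ptges and Alox5. Each of the 9 neighbouring steps had the same order in 3 of 3 libraries. In these bulk samples fewer cells with a message and less of it in each cell cannot be told apart. The levels hold for the first quantification: in the second, 9 of the 10 means were lower, among them Alox5ap at 45.5, Ptgs2 at 22.5 and Ptgs1 at 2.28 TPM, and that of Ptges was 0.25 TPM. The steps were not equally clear. Ptger4 exceeded Ptgs1 by only 0.17 ± 0.06 (SD, n = 3) on the log2(TPM + 1) scale, Ptgs2 exceeded Ptges3 by 0.68 ± 0.41, and the step from Ptger2 to Ptges was in that order in 1 of 3 libraries in the second quantification deposited for the same libraries.

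**Figure D1:**
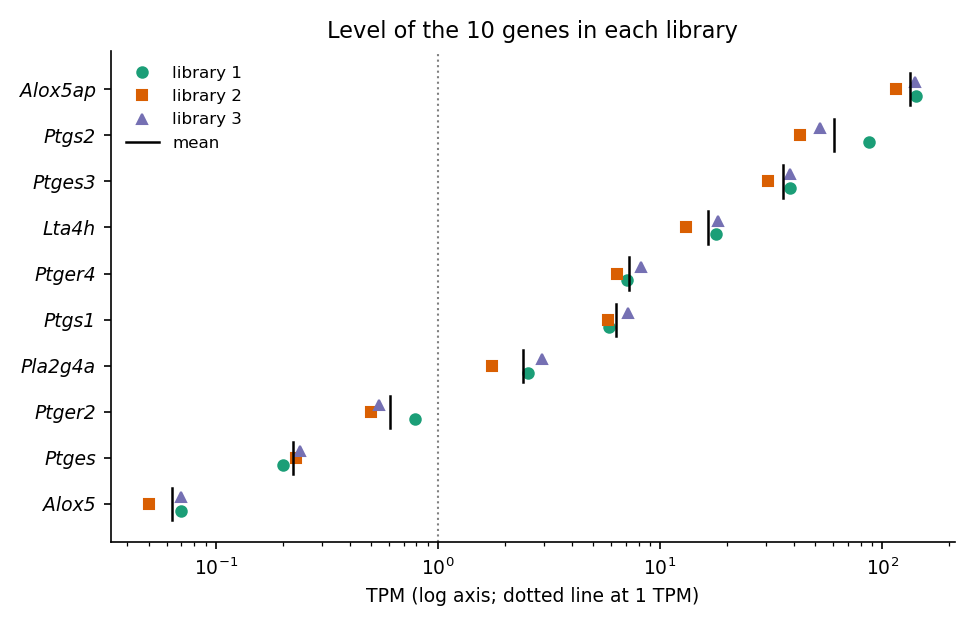
Level in TPM (log axis) of the 10 genes in each of the 3 libraries, with the mean as a black line and 1 TPM as a dotted line. Ptger2, Ptges and Alox5 lie below 1 TPM in every library, and library 1 stands apart from the other libraries for Ptgs2. Rescaled to protein-coding genes (not drawn), Ptgs2 stood less far apart, at 227.3, 160.3 and 150.2 TPM in libraries 1, 2 and 3.

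Release of arachidonic acid starts with Pla2g4a, the cytosolic phospholipase A2 that prefers arachidonate-containing phospholipids. It stood at 2.55, 1.76 and 2.93 TPM in libraries 1, 2 and 3, or 2.41 ± 0.60 TPM, from 286, 294 and 357 counts. It was a low message, ranked 8103 among the 9128 coding genes detected. The second quantification put it at 1.48, 0.65 and 0.86 TPM, below 1 TPM in libraries 2 and 3.

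The cyclooxygenases were unequal. Ptgs2, which encodes COX-2, stood at 87.1, 42.6 and 52.2 TPM, a mean of 60.7 ± 23.4, from 15684, 11419 and 11009 counts. Ptgs1, which encodes the constitutive COX-1, stood at 5.91, 5.85 and 7.20 TPM, a mean of 6.32 ± 0.76. Ptgs2 was above Ptgs1 in every library, by 14.7, 7.29 and 7.25 times in TPM, or 3.01 ± 0.57 on the log2(TPM + 1) scale. Library 1 had the highest Ptgs2 and the lowest Ptgs1 after scaling to library size, so the ratio was widest there. With 3 libraries an exact sign-flip test cannot give a p under 0.25, and no p is given for the ratios. Ptgs2 ranked 827 and Ptgs1 5729 among the 9128 coding genes.

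Of the prostaglandin E synthases, Ptges encodes the microsomal enzyme that is known to be induced with COX-2, and Ptges3 encodes the cytosolic protein p23, which is also a co-chaperone of Hsp90. Ptges stood at 0.20, 0.23 and 0.24 TPM, from 20, 49 and 41 counts, and Ptges3 at 38.6, 30.5 and 38.5 TPM. Ptges was at a low level in every library and Ptges3 far above it, by 4.91 ± 0.20 on the log2(TPM + 1) scale, a size that the added 1 TPM reduces. The level of Ptges3 is uncertain, because the pseudogene Ptges3-ps is identical to it over 480 bases and was assigned 68.4, 71.9 and 66.0 counts, against 2917, 3431 and 3436 for Ptges3. In the second quantification the share of coding TPM taken by Ptges was higher, 2.08 ± 0.65 TPM against 0.69 ± 0.17 TPM when both were rescaled to protein-coding genes, and for the other 9 genes these rescaled means were closer.

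The leukotriene branch was uneven as well. Alox5ap, the 5-lipoxygenase activating protein, was the most abundant of the 10 at 142.5, 115.8 and 140.2 TPM, or 132.8 ± 14.8, and ranked 400 among the coding genes. Lta4h, whose product turns leukotriene A4 into leukotriene B4, stood at 17.9, 13.0 and 18.3 TPM. Alox5, the 5-lipoxygenase itself, was listed at 0.07, 0.05 and 0.07 TPM from 2, 4 and 5 counts. Counts this near the 3 allowed where no read is counted leave the level of Alox5 uncertain. Alox5ap thus stood 6.97 ± 0.15 above Alox5 on the log2(TPM + 1) scale, and the size of that difference rests on the added 1 TPM. On these few counts, 60.9 ± 18.1% of the transcript TPM of Alox5 was assigned to transcripts with a retained intron.

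The receptors for prostaglandin E2 that raise cAMP are EP2 and EP4. Ptger4, which encodes EP4, stood at 7.10, 6.43 and 8.19 TPM, a mean of 7.24 ± 0.89 from 924, 1244 and 1249 counts. Ptger2, which encodes EP2, stood at 0.79, 0.50 and 0.54 TPM, from 110, 105 and 90 counts. Ptger4 was above Ptger2 in each library, by 2.35 ± 0.20 on the log2(TPM + 1) scale and by 8.99, 12.9 and 15.2 times in TPM. The TPM groups of the receptors did not overlap.

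The libraries were then tested for variation, the only test across genes that 1 group allows, with edgeR's goodness of fit on the counts. A gene is called when it varies more than the trend for genes of its level in these libraries. Variation that such genes share is therefore not called. Of the 10 genes 9 passed the filter on low counts, all but Alox5, and 0 were called at an adjusted p under 0.05, while 203 of all 12231 genes tested were called, which is 1.66%. At an unadjusted p under 0.05 there was 1 of the 9, against 6.42% of all genes tested. The median range of log2 CPM over the libraries was 0.32 for the 9 genes and 0.28 for all genes tested.

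That gene was Ptgs2, with 8.88, 8.31 and 8.21 log2 CPM (adjusted p = 0.586, edgeR). Library 1 was high and libraries 2 and 3 were close to each other. Its adjusted p by edgeR lay between 0.562 and 1.00 under the alternatives tried, the highest without library 1. Ptges had the widest range, 1.17 in log2 CPM, with library 1 lowest, but on few counts (adjusted p = 1.00, edgeR). At the other end Alox5ap ranged over 0.04, with 7.0, 7.0 and 7.04 log2 CPM. Ptgs1 and Ptger4 were lowest in library 1, by 0.43 and 0.32 from their highest library, and Ptger2 was highest there, and none of these passed the test.

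Other measures also differed between the libraries. Library 1 had the lowest depth. The summed TPM of neutrophil markers was highest there, at 52.1 against 42.7 and 38.7 in libraries 2 and 3, as was that of macrophage markers. Such sums are shares of all RNA listed, of which protein-coding genes held 38.4, 26.6 and 34.8% in libraries 1, 2 and 3. They therefore also move with that share. The median deviation of the tested neutrophil markers in log2 CPM was 0.09, 0.23 and -0.23, with library 2 highest. Of 6 RNAs known to be retained in the nucleus 4 were detected at 1 TPM in every library of this cytosolic fraction. Malat1 stood at 647.4, 718.5 and 212.1 TPM and Neat1 at 34.14, 74.65 and 21.84 TPM in libraries 1, 2 and 3. Of the 6, 5 could be tested and 5 were called, with a median deviation in log2 CPM of -0.37, 0.85 and -0.68. Library 2 was thus highest for these RNAs and library 1 for Ptgs2. The part of these RNAs in the Ptgs2 values was not tested. Among the 9 genes 2 were highest in library 1, 4 in library 2 and 3 in library 3, where all tested genes gave 36.8%, 31.2% and 32%. Lowest were 6 in library 1, 1 in library 2 and 2 in library 3, where all tested genes gave 38.3%, 31.9% and 29.8%.

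**Figure D2:**
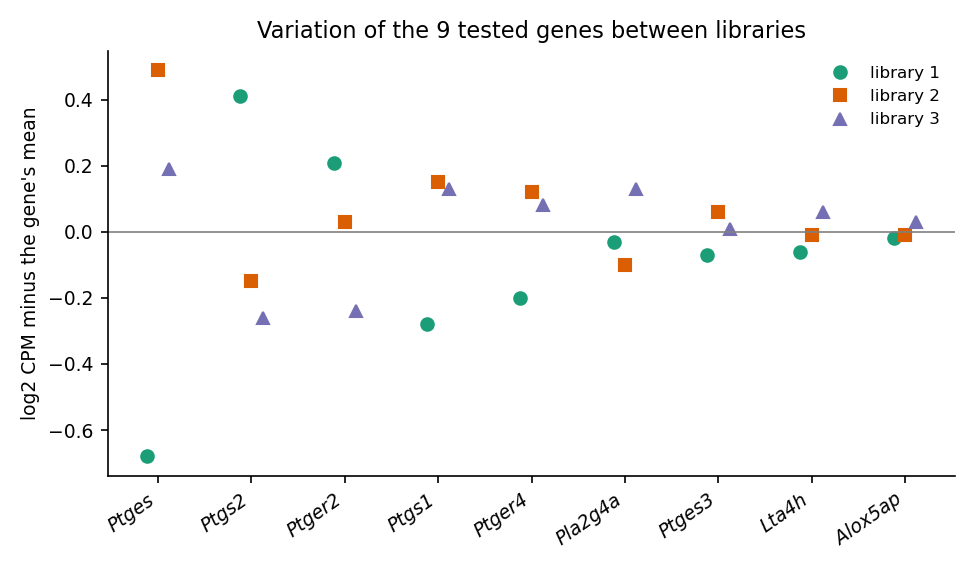
Deviation of log2 CPM from each gene's own mean in the 3 libraries, for the 9 genes tested, ordered by range. Ptges and Ptgs2 have the widest ranges, 1.17 and 0.67, with library 1 at opposite ends, and Alox5ap the narrowest.

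The coding genes at 10 TPM or more whose 3 deviations lay nearest to those of Ptgs2 were Dhcr7, 1110008P14Rik and Slc50a1. Their distances were 0.040, 0.043 and 0.047 in log2 CPM, and 13 of 4389 candidates lay within 0.1. For Ptges, the gene with the widest range, they were Mrpl52, Hmgn1 and Fam174a, at 0.013, 0.054 and 0.21. With 3 libraries a near match in pattern is easily found, and nothing is read from it about control.

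The genes differed in how far 1 transcript accounted for them. Ptgs2-201 took 100% of the transcript TPM of Ptgs2 in each library, Ptgs1-201 took 92.7 ± 1.6% and Lta4h-201 took 89.5 ± 1.4%. Ptges3-201 held 99.8 ± 0.3% and Pla2g4a-201 held 96.8 ± 5.2%. The second quantification gave lower shares of 96.3 ± 1.9% for Ptgs2-201, 87.4 ± 6.3% for Ptgs1-201 and 92.5 ± 11.4% for Ptges3-201. Pla2g4a-201 fell there to 82.5 ± 13.9%, while Lta4h-201 held 90.7 ± 1.2%. Alox5, on 2 to 5 counts, had no transcript that led in all libraries, since Alox5-205 held 71.4, 0 and 57.1% and Alox5-207 held 0, 60 and 0%.

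For Alox5ap the full-length coding transcript Alox5ap-201 held 57.8, 47.1 and 54.0% of TPM in libraries 1, 2 and 3. The processed transcript Alox5ap-204, only 504 bases long, held 28.1, 39.3 and 34.7%, and the coding Alox5ap-202 held 14.1, 13.6 and 11.3%. By counts, which are not corrected for length, Alox5ap-201 held 80.9 ± 3.5% and Alox5ap-204 14.6 ± 3.3%. The first place of Alox5ap in TPM therefore includes short transcripts, and Alox5ap-201 alone stood at 82.3, 54.6 and 75.7 TPM. That is below Ptgs2 in library 1 and above it in libraries 2 and 3, so the order of the leading pair depends on which transcripts are counted.

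Ptger4 was divided between coding transcripts. Ptger4-201 held 63.0, 69.6 and 77.2% and Ptger4-202 held 36.9, 30.4 and 22.8%, and the second quantification gave the same order of libraries, with 59.3, 68.0 and 76.2% for Ptger4-201. In TPM Ptger4-201 stood at 4.47, 4.47 and 6.32 and Ptger4-202 at 2.62, 1.95 and 1.87. For Ptger2 a transcript with a retained intron, Ptger2-202, held 19.0, 14.0 and 11.1%. For Ptges, 35% of the TPM in library 1 was assigned to the 543-base processed transcript Ptges-204 and 0% in libraries 2 and 3. By counts the share of Ptges-204 in library 1 was only 5% of 20 counts. The TPM of Ptges was close to equal in the libraries while its counts were 20, 49 and 41. The coding Ptges-202 alone stood at 0.13, 0.23 and 0.24 TPM. The second quantification gave Ptges-204 59.3 ± 15.7%, so the transcript split of this gene was not settled at this depth.

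**Figure D3:**
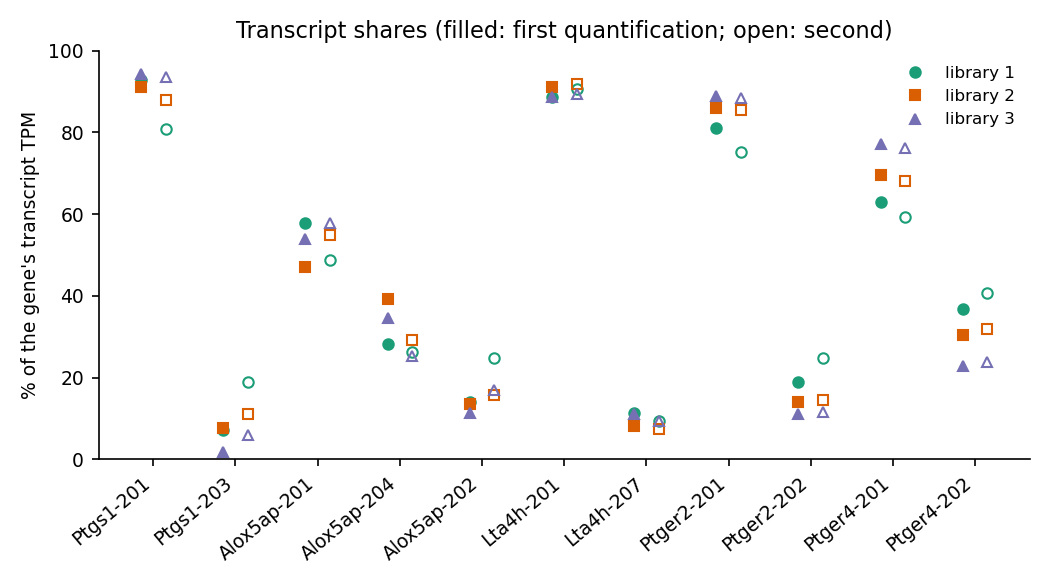
Share of a gene's transcript TPM (%) in each library for transcripts of 5 genes with a mean share of 4% or more, filled symbols for the first quantification and open symbols for the second. Ptger4-201 runs from 63.0 to 77.2% and Alox5ap-204 from 28.1 to 39.3% over the libraries.

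Ptgs2 and Pla2g4a are neighbours, which places successive steps of the pathway in 1 stretch of chromosome 1. Ptgs2 lies on the plus strand at chr1:150100031-150108227 and Pla2g4a on the minus strand at chr1:149829618-149961290 (mm10), with starts 138741 bases apart. The antisense gene Ptgs2os starts 68 bases upstream of Ptgs2 on the other strand and had 2, 0 and 0 counts. Ptgs2os2, whose start lies 64917 bases away, stood at 0.40, 0.37 and 0.44 TPM. Of the other genes within 200 kb only the pseudogene Rbm3-ps had counts, at 0.78, 0.54 and 0.91 TPM. Ptgs2 was the one gene of this stretch above 10 TPM in these cytosolic libraries. How strand was used in the counting is not given in the sources used here, so reads of a gene and of an antisense partner may not be told apart. For the overlapping antisense genes of Ptgs1, Alox5ap and Ptger2 no more than 4 counts were listed in any library.

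**Figure D4:**
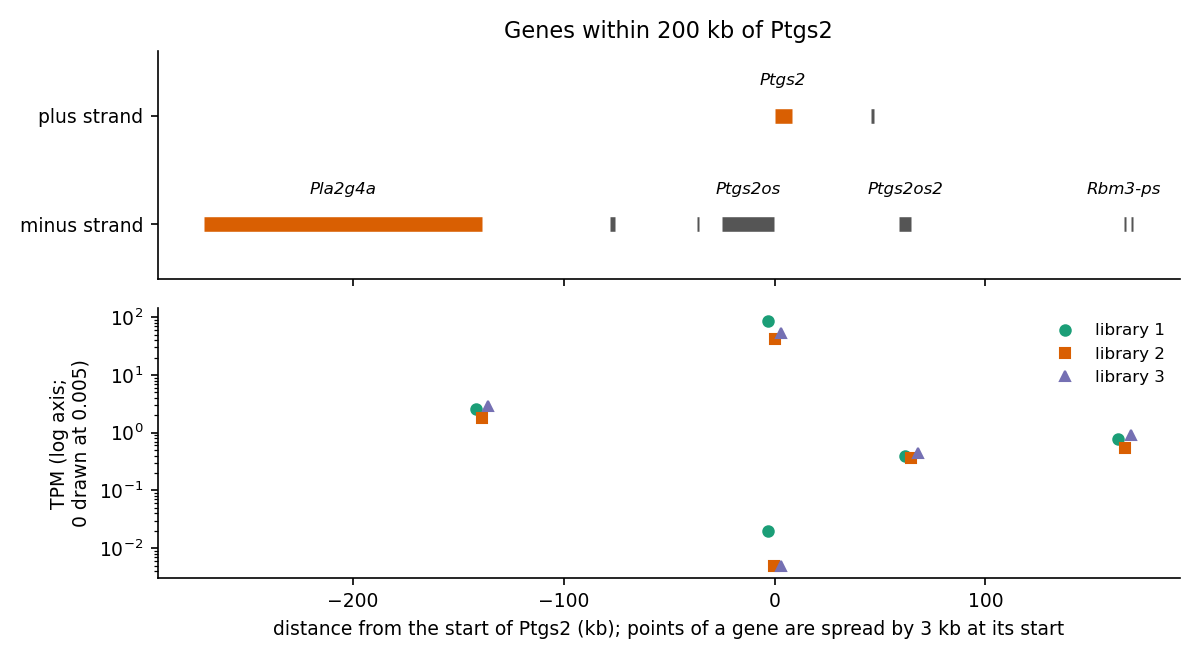
Genes with any part within 200 kb of Ptgs2, drawn by strand and by distance from its start (kb), above the TPM (log axis) of those with counts in each library. Ptgs2 stands between 42.6 and 87.1 TPM and Pla2g4a between 1.76 and 2.93, while Ptgs2os is near 0.

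The rest of the pathway was read from 81 genes in 8 lists. Of these 35 were detected at 1 TPM in every library and 20 had 0 counts in each. In the variation test 44 could be tested and 0 were called by edgeR, with 7 at an unadjusted p under 0.05, beside 1.66% and 6.42% of all genes tested.

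Among other genes of arachidonate release 8 of 25 were detected. The highest was Abhd12, a lipid hydrolase, at 161.1, 121.4 and 146.9 TPM, followed by the lysosomal phospholipase A2 gene Pla2g15 at 62.4, 53.9 and 56.2 TPM. Daglb, a diacylglycerol lipase, stood at 20.2, 15.9 and 16.6 TPM. Pla2g4a was thus a minor message beside these, and of the other cytosolic group IV genes Pla2g4b to Pla2g4f none reached 0.2 TPM. Reacylation genes, which return arachidonate to phospholipids, were present in 8 of 10 cases, at means up to 17.8 ± 2.6 TPM for Acsl5, and Acsl4 and Mboat7, both selective for arachidonate, stood at 16.0 ± 3.2 and 13.0 ± 2.8 TPM.

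Of 8 terminal prostanoid synthase genes 6 were detected. Hpgds, the haematopoietic prostaglandin D synthase, was highest at 84.3, 60.0 and 74.8 TPM, and the thromboxane synthase gene Tbxas1 stood at 29.8, 31.4 and 31.6 TPM. Akr1b3 and Prxl2b, both with prostaglandin F synthase activity, had means of 38.5 ± 6.4 and 25.1 ± 3.8 TPM. Ptges2 stood at 2.69 ± 0.32 TPM. Each of these was above Ptges in every library, while Ptgds and the prostacyclin synthase gene Ptgis had 0 counts.

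Of the breakdown and transport genes 4 of 7 were detected, led by the prostaglandin reductase genes Ptgr2 at 14.1 ± 1.8 and Ptgr1 at 6.52 ± 1.19 TPM, and the exporter Abcc4 stood at 2.42 ± 0.53 TPM. Hpgd, which starts the breakdown of prostaglandin E2, was listed at 0.24, 0.28 and 0.37 TPM. Among other prostanoid receptors only the EP1 gene Ptger1, at 1.67 ± 0.32 TPM, and the prostacyclin receptor gene Ptgir, at 1.98 ± 0.42 TPM, were detected, and both were below Ptger4 in each library. The EP3 gene Ptger3 was listed at 1.25, 0.38 and 1.16 TPM, with library 2 low.

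Downstream of Alox5, 5 of 11 leukotriene genes were detected. The leukotriene C4 synthase gene Ltc4s stood at 4.18, 3.47 and 3.62 TPM and the dipeptidase gene Dpep2 at 27.8, 17.7 and 24.9 TPM. The microsomal glutathione transferase gene Mgst3 stood at 14.7, 6.90 and 8.35 TPM, with library 1 high. Of 7 leukotriene and lipoxin receptor genes the cysteinyl leukotriene receptor genes Cysltr1, at 3.95 ± 1.70 TPM, and Cysltr2, at 1.48 ± 0.21 TPM, were detected, while Ltb4r1, for leukotriene B4, was listed at 0.12, 0.13 and 0.08 TPM. None of 6 other lipoxygenase genes reached 1 TPM. Alox5 was thus near the limit of detection while Alox5ap, Lta4h and Ltc4s were above 1 TPM.

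**Figure D5:**
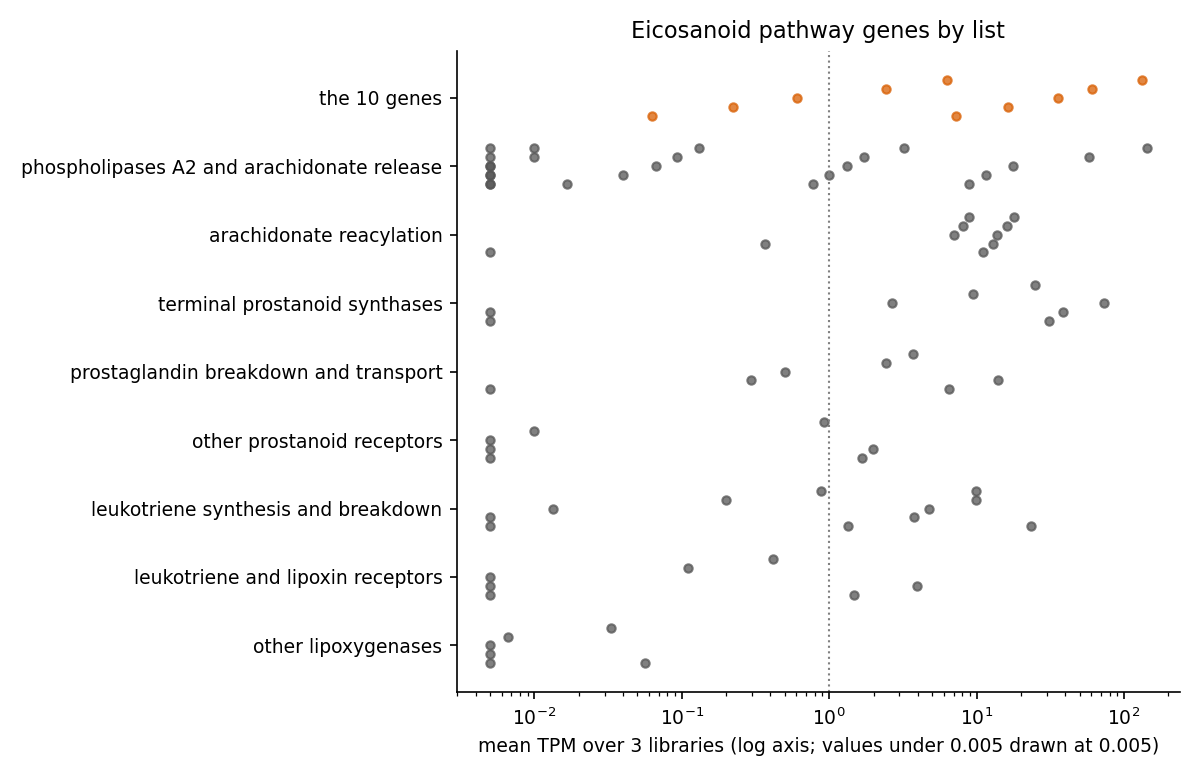
Mean TPM over 3 libraries (log axis, means under 0.005 drawn at 0.005) of the 10 genes and of the 81 other pathway genes by list, 1 point for each gene. Terminal synthases and reacylation genes lie mostly above 1 TPM (dotted line), and all 6 other lipoxygenases lie below it.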

How the data were processed

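Per the deposited notes and the labels, values were made by the authors against mm10 with GENCODE M21. The expected counts (estimated read numbers that need not be whole) and the TPM in the deposited gene and transcript tables come from 1 quantification, and a second transcript table deposited for each library gives estimated counts and TPM from another. Their layouts are those of RSEM and kallisto, but the sources used here name no tool, version or strand setting. From 55536 genes listed, expected counts were rounded to whole numbers, filtered with filterByExpr, scaled by TMM and fitted with an intercept in edgeR 4.0.16 (R 4.3.3). The dispersion, the spread expected at a gene's level, was taken from a trend over the genes tested in these libraries. A chi-square goodness of fit was Benjamini-Hochberg adjusted over 12231 genes and called at an adjusted p under 0.05. A further 26345 rows that name no gene held 0.365, 0.162 and 0.020% of counts and were left out. Log2 CPM used a prior count of 0.5, and ratios used log2(TPM + 1). Near copies were alignments of 100 bases or more at 90% identity or more (BLAST 2.17.0). The symbol Dpep2 has 2 identifiers, of which the one with more counts was used. The fit was tested on data simulated from its own dispersion trend, which cannot show whether that trend is right for these libraries. Named genes were the 10, pathway genes by level, the genes within 200 kb of Ptgs2 and the 3 nearest patterns for Ptgs2 and Ptges. Ptger3, Hpgd, Ltb4r1, the genes at 0 and the named neutrophil, eosinophil and nuclear RNA genes were added after their values were seen. The genes and lists were chosen with earlier results of these data known. Alternatives were other scalings, filters, dispersions, pseudocounts and thresholds, the second quantification, TPM rescaled to protein-coding genes, and leaving out each library.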

Additional observations from a re-analysis of the deposited data

How the results depend on the processing

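No paired analysis was possible because there is only 1 group. No gene of the 10 was called for variation under any of the 8 alternatives run, and the number detected ran from 6 to 9. Ptgs2 was above Ptgs1 by 2.68 to 3.19 on the log2 scale under the alternatives run. The count of varying genes was 203 and ranged from 89 to 132 with 1 library left out, where fewer samples were tested. It was 298 with a common dispersion, which is 1 value for all genes, and 221 without the filter on low counts. In the other alternatives it was 200 or 203. The difference of Ptger4 over Ptger2, 2.35 on the log2(TPM + 1) scale, was 3.39 with a pseudocount of 0.1, 3.02 with TPM rescaled to protein-coding genes, 1.49 in the second quantification and 3.05 in the second quantification when rescaled. In the same order that of Alox5ap over Alox5, 6.97, was 9.66, 8.41, 5.41 and 8.29, and that of Ptges3 over Ptges, 4.91, was 6.79, 6.02, 3.43 and 5.22. All were positive. A smaller added constant or a larger TPM scale widens such differences by construction. The second quantification moved the share of the transcript with the highest mean TPM for 5 of the 10 genes. It also moved all 10 levels, and Pla2g4a was the gene no longer detected there. Rescaling moved all 10 as well: protein-coding genes held 38.4, 26.6 and 34.8% of TPM in libraries 1, 2 and 3, and 17.6, 9.84 and 7.91% in the second quantification. The alternative that rescales the second quantification was chosen after seeing the data. Depth limits Alox5 and Ptges most.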
